A study of Danio rerio with 12 samples.

Results

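The antioxidant enzyme genes sod1, sod2, cat, gpx1a, gpx4a, gpx4b, prdx1, prdx3, gclc and nqo1 were read from the gene counts of 12 zebrafish brain libraries. The names were matched without regard to case. A name carried by several gene identifiers was kept with all of them. The 10 names gave 11 of the 32105 gene identifiers in the count table, because prdx1 stands for 2 identifiers. gpx4b was read from the entry named GPX4, which has no paralogue letter. The libraries came from brains of 6-month-old male fish in 3 strains. They were 4 libraries of actb1::miR-29sponge, 4 of kif5a::miR-29sponge and 4 of wild type. Sponge transcripts carry sites that bind a microRNA, here miR-29, and compete with its targets for it. Apart from what the strain names say (actb1, a cytoplasmic actin gene, and kif5a, a neuronal kinesin gene), no promoter fragment, insertion site or number of founder fish was given in the sources used here. Whether each library stands for a separate fish is also not stated, so the p-values speak only of how these libraries differ, and part of that may be technical.

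The enzymes form a chain of detoxification. Superoxide dismutases turn superoxide into hydrogen peroxide, and catalase, glutathione peroxidases and peroxiredoxins then reduce the peroxide to water. Glutathione, the main thiol of the cell, is made in a pathway whose first and rate-limiting step is catalysed by the product of gclc. NQO1 reduces quinones without releasing radicals. The genes gclc and nqo1 are known in mammals as targets of NRF2, a transcription factor held in check by KEAP1. The brain uses much oxygen and is rich in unsaturated lipids, the substrate that GPX4 protects from peroxidation.

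Total counts per library ran from 20884576 to 33573243. Neuronal SNAP25 (ENSDARG00000020609) stood at 2471 to 3984 CPM (counts scaled to library size with TMM factors) and the myelin gene mbpa at 9306 to 18808 CPM. Library actb1 sponge 3 stood apart: 2.24% of its counts fell on the 13 mitochondrially encoded protein genes, while in the other 11 libraries 9.37% to 14.0% did. In that library the 7 neuron markers summed to 4427 CPM, against 6124 to 6400 CPM in the other 3 actb1 sponge libraries, 5909 to 6565 CPM in kif5a sponge and 5555 to 6522 CPM in wild type. Marker levels differed in another way too. The 9 photoreceptor markers summed to 122 to 240 CPM in actb1 sponge 1 to 3 and to 188 CPM in both kif5a sponge 2 and 3. In the other 7 libraries, all wild-type ones included, they summed to 5.85 to 21.1 CPM. The part of this in the results was not tested. In whole-brain RNA, fewer cells of a type and less RNA per cell cannot be told apart.

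The enzymes covered a wide range of levels per gene length. On the RPKM scale, recomputed from the counts and the gene length implied by the deposited table, wild-type means ran from 9.02 ± 1.51 for NQO1 to 187 ± 20.5 for PRDX1 (ENSDARG00000025350; SD, n = 4 each). GPX4 followed at 177 ± 8.06, gpx4a at 137 ± 11.9, SOD1 at 104 ± 5.38 and SOD2 at 96.9 ± 4.16 RPKM. PRDX3 stood at 59.6 ± 2.18, CAT at 57.4 ± 5.89, gpx1a at 30.7 ± 4.94, GCLC at 25.1 ± 1.44 and prdx1 (ENSDARG00000058734) at 24.5 ± 3.42 RPKM. The wild-type libraries of PRDX1 (ENSDARG00000025350) and GPX4 overlapped, as did those of SOD1 and SOD2, of PRDX3 and CAT, and of gpx1a, GCLC and prdx1. The other steps of that order were wider than the spread of the wild-type libraries. On the mean RPKM over all libraries, NQO1 stood at percentile 61.4 of the 19645 genes tested and the other 10 identifiers at percentiles 86.1 to 98.6.

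**Figure D1:**
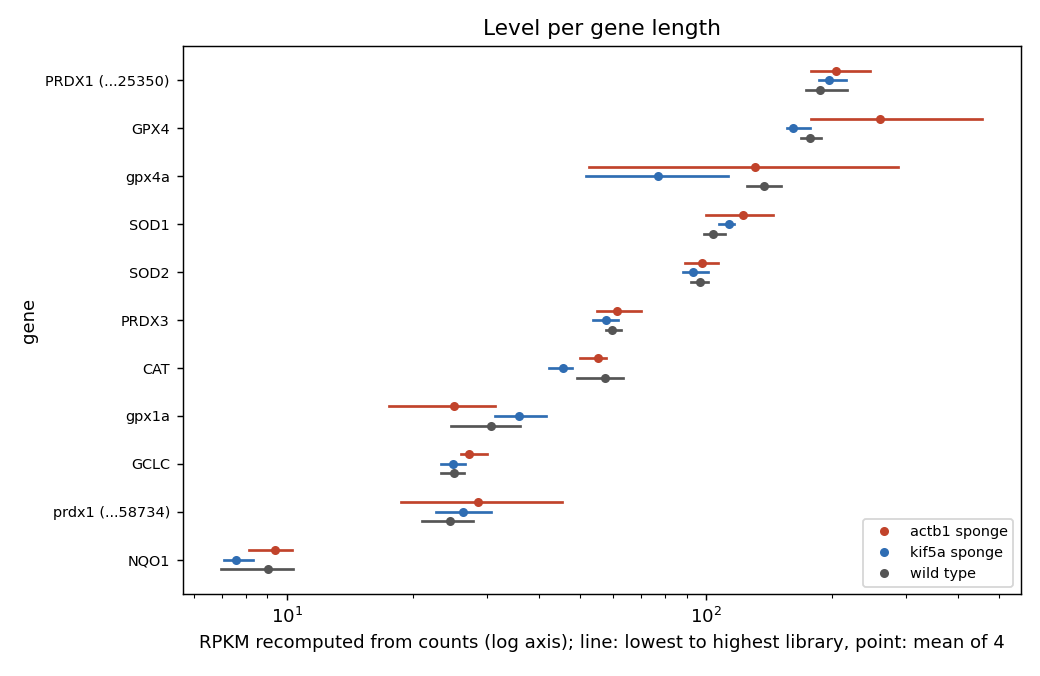
RPKM recomputed from counts (log axis) for each antioxidant enzyme gene, with a line from the lowest to the highest of 4 libraries and a point at the mean, for actb1 sponge, kif5a sponge and wild type. The order of the genes spans 9.02 to 187 RPKM in wild type, and gpx4a and GPX4 have the longest lines in actb1 sponge.

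None of the 11 identifiers passed the test in any comparison. All 11 had more than 0.5 CPM in at least 4 libraries and were tested. By the quasi-likelihood test of edgeR, adjusted over all genes after Benjamini and Hochberg and called at an adjusted p under 0.05, 0 of 11 were called in actb1 sponge against wild type, where 0.738% of all genes were. The count was 0 of 11 in kif5a sponge against wild type, beside 0.534% of all genes, and 0 of 11 for both lines together against wild type, beside 0.621%. Between the lines, actb1 sponge against kif5a sponge, it was 0 of 11, beside 1.18%. At an unadjusted p under 0.05, 1 of 11 stood out in actb1 sponge against wild type (16.7% of all genes), 2 of 11 in kif5a sponge against wild type (11.3%), 1 of 11 for both lines (13.4%) and 4 of 11 between the lines (16.2%). The first 3 of these counts lie near the share of all genes, and the fourth above it. limma-voom called 0 of 11 in each, in the same order, beside 0.463%, 0.524%, 0.458% and 1.02% of all genes. DESeq2 called 0, 1, 0 and 2 of 11 in the same order of comparisons, beside 4.75%, 2.22%, 3.37% and 4.84% of all genes.

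As a plain reading of the libraries, CAT and gpx4a lay below every wild-type library in all 4 kif5a libraries (2 of 11, beside 4.99% of all genes). CAT, GPX4 and GCLC lay higher in all 4 actb1 libraries than in any kif5a library (3 of 11, beside 4.68%). No member separated actb1 sponge from wild type in either direction (0 of 11, beside 9.33%).

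The median log2 difference of the 11 identifiers was 0.05 in actb1 sponge against wild type (all genes -0.03) and -0.09 in kif5a sponge against wild type (all genes -0.01). Both comparisons share the wild-type libraries. Between the lines, actb1 sponge minus kif5a sponge, the median was 0.15, and 10 of 11 differences were positive, against 49.4% of all genes. The exception was gpx1a. The lean did not run through all actb1 libraries. The mean log2 CPM of the members relative to wild type was -0.18, -0.17, 0.30 and 0.15 in actb1 sponge 1 to 4. In kif5a sponge 1 to 4 it was -0.23, -0.07, -0.05 and -0.26, so actb1 sponge 1 and 2 lay within the kif5a range. Members also varied together over the libraries, so the 11 differences are not independent.

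**Figure D2:**
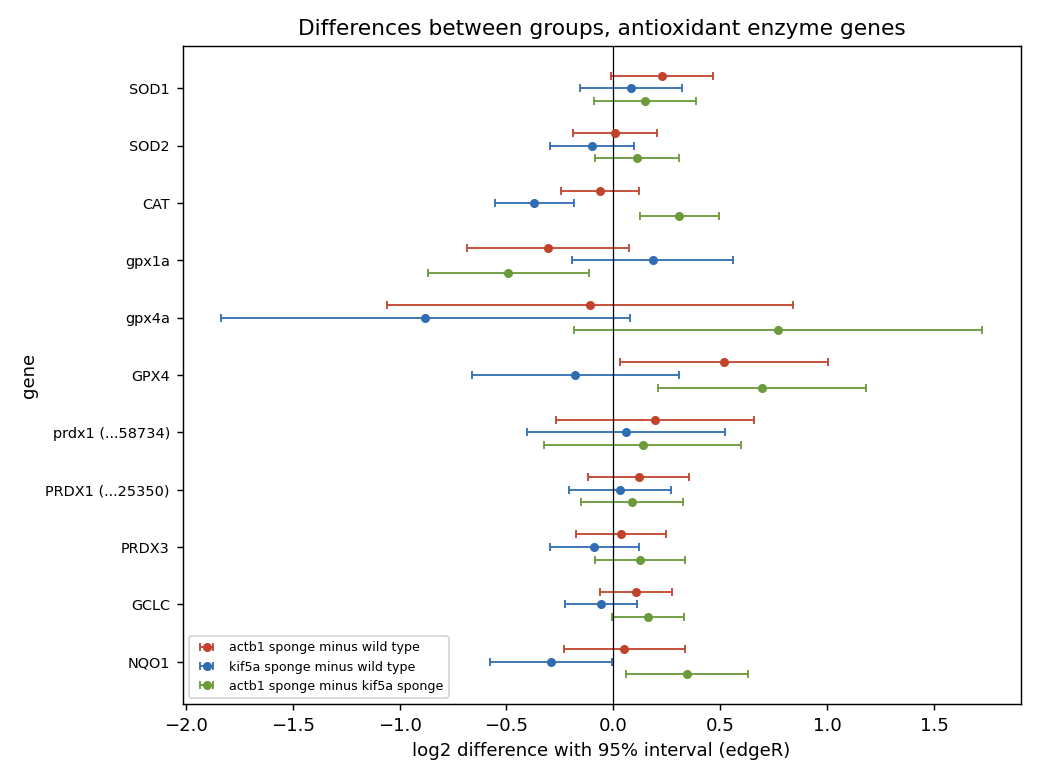
Log2 differences with 95% intervals (edgeR) for each gene, for actb1 sponge minus wild type, kif5a sponge minus wild type and actb1 sponge minus kif5a sponge. CAT lies at -0.37 in kif5a sponge minus wild type with an interval of -0.55 to -0.18, and gpx4a has the widest intervals.

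Catalase stood apart most clearly, as the member with the smallest p in both comparisons of the kif5a line. The enzyme works in peroxisomes, where it breaks down hydrogen peroxide. CAT stood at 102, 97.5, 109 and 109 CPM in kif5a sponge 1 to 4, against 136, 148, 122 and 133 CPM in wild type 1 to 4. The 4 kif5a libraries lay below all 4 of wild type, with no overlap. In actb1 sponge 1 to 4 the values were 132, 117, 126 and 141 CPM, which overlapped wild type and lay above all 4 kif5a libraries. The log2 difference of kif5a sponge minus wild type was -0.37 ± 0.09 (SE), a fold of 0.774, with an interval of -0.55 to -0.18. By edgeR its adjusted p was 0.104, which misses the threshold, and its unadjusted p of 0.000883 ranked 167 among all genes. DESeq2 gave -0.37 with an adjusted p of 0.00366, a call, in a comparison where DESeq2 called 2.22% of all genes and edgeR 0.534%. In 8 fits that each omitted 1 library, the edgeR difference stayed between -0.41 and -0.32, and the adjusted p ran from 0.0788 to 0.344.

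Between the lines, CAT differed by 0.31 ± 0.09 on the log2 scale in actb1 sponge minus kif5a sponge (edgeR adjusted p = 0.107, DESeq2 adjusted p = 0.0145). In actb1 sponge minus wild type it differed by -0.06 ± 0.08, with an interval of -0.25 to 0.12. Microglia and macrophage markers moved with CAT in part. All 11 of them were detected in every library, and they summed to 1094 to 2353 CPM in actb1 sponge and 887 to 1020 CPM in kif5a sponge, against 920, 1945, 1059 and 1729 CPM in wild type 1 to 4, so that wild type 1 and 3 lay close to the kif5a line. In kif5a sponge minus wild type, 11 of 11 were negative (median log2 difference -0.86), and 1 was called by edgeR (beside 0.534% of all genes). Peroxisome genes other than catalase (26 tested) had a median log2 difference of 0.01 in kif5a sponge against wild type, with 14 positive. Over the 12 libraries, r was taken with the mean log2 level of the microglia and macrophage markers. It was 0.61 for CAT, 0.57 for gpx4a, 0.48 for GPX4 and 0.44 for PRDX1 (ENSDARG00000025350). These were not the only markers with such an r. With the neuron markers r was -0.83 for GPX4 and -0.68 for gpx4a (-0.08 and -0.45 without actb1 sponge 3). It was -0.75 for prdx1 (ENSDARG00000058734) and -0.59 for PRDX1 (ENSDARG00000025350), and -0.31 and -0.34 without that library. With meninges and fibroblast markers r was -0.54 for CAT (-0.60 without that library). The part of microglia or of other cell types in the values of these genes was not tested.

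The genes whose log2 CPM ran most like that of CAT over the 12 libraries, among 15624 named genes of at least 2 CPM, were PJA2 (Pearson r = 0.92), eif4ebp3 (0.92) and NR1D1 (0.89). PJA2 encodes a ubiquitin ligase, eif4ebp3 a repressor of translation initiation, and NR1D1 the clock repressor REV-ERB alpha. NR1D1 stood at 10.9, 12.3, 13.5 and 15.1 CPM in kif5a sponge 1 to 4, against 84.2, 55.4, 59.0 and 57.3 CPM in wild type 1 to 4. Such an r is the highest of many, and libraries share depth and composition, so it is a description only.

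gpx4a was the most variable member, with and without actb1 sponge 3. Glutathione peroxidases reduce peroxides with glutathione, and GPX4 is the form that acts on lipid peroxides within membranes and restrains ferroptosis. gpx4a stood at 52.2, 59.9, 264 and 130 CPM in actb1 sponge 1 to 4, at 49.3, 110, 86.4 and 51.0 CPM in kif5a sponge 1 to 4, and at 122, 149, 150 and 126 CPM in wild type 1 to 4. All 4 kif5a libraries lay below wild type. In actb1 sponge, replicates 1 and 2 lay below every wild-type library, replicate 4 within them and replicate 3 above. Counting error was small beside this spread, at 1.59% to 2.16% of a group's mean, whereas the coefficient of variation between libraries was 77.5% in actb1 sponge, 39.7% in kif5a sponge and 10.8% in wild type.

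With so wide a spread the gpx4a differences were not called. The log2 difference was -0.88 ± 0.44 in kif5a sponge minus wild type, with an interval of -1.84 to 0.08 (edgeR adjusted p = 0.482). It was -0.11 ± 0.44 in actb1 sponge minus wild type (adjusted p = 0.920). Without actb1 sponge 3 the actb1 difference was -0.73, and without actb1 sponge 2 it was 0.18. The within-group SD of gpx4a was 0.71 on the log2 CPM scale, at percentile 98.8 of 8042 genes with at least 20 CPM on average, whose median was 0.18. Without actb1 sponge 3 it was 0.51.

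**Figure D3:**
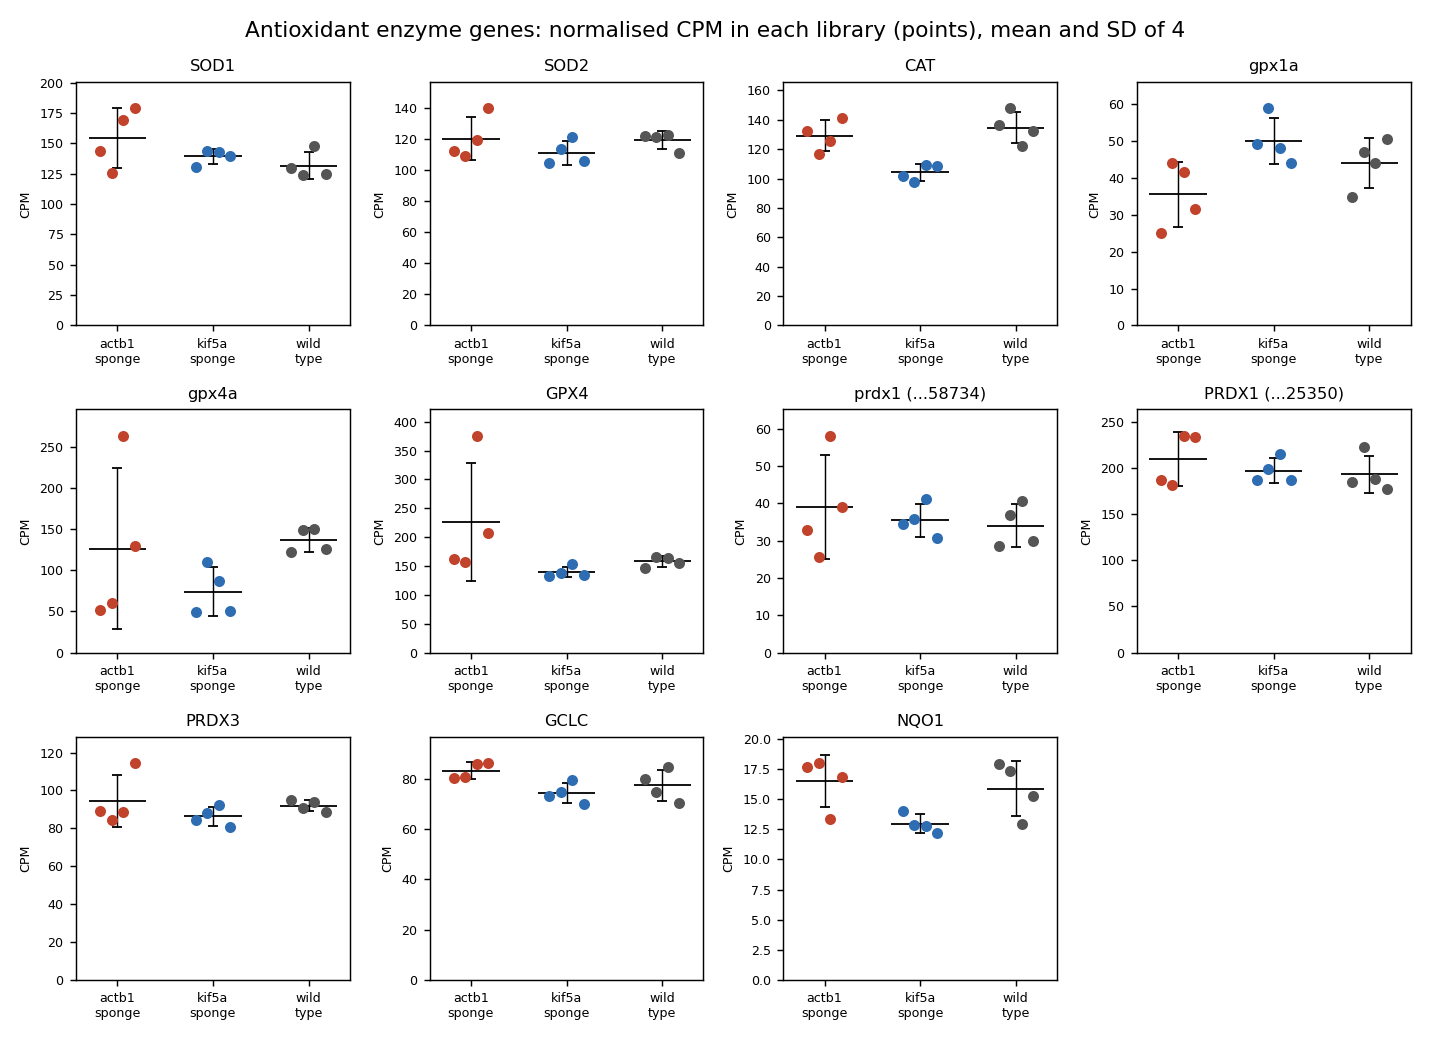
Normalised CPM of each antioxidant enzyme gene in every library (points), with the mean and SD of 4 libraries, for actb1 sponge, kif5a sponge and wild type. The kif5a points of CAT (97.5 to 109 CPM) lie below those of wild type (122 to 148 CPM), and gpx4a in actb1 sponge runs from 52.2 to 264 CPM.

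GPX4, the entry read as gpx4b, was highest in actb1 sponge 3. It stood at 163, 157, 376 and 208 CPM in actb1 sponge 1 to 4, at 133, 137, 153 and 135 CPM in kif5a sponge 1 to 4, and at 147, 166, 164 and 155 CPM in wild type 1 to 4. In actb1 sponge, replicates 3 and 4 lay above every wild-type library, and the 4 actb1 libraries lay above the 4 kif5a libraries. Replicate 3 was far above all other libraries, and the within-group SD on the log2 CPM scale was 0.34 with it and 0.13 without it. The log2 difference was 0.52 ± 0.22 in actb1 sponge minus wild type (edgeR adjusted p = 0.270), and 0.18 without actb1 sponge 3. Between the lines it was 0.70 ± 0.22 (edgeR adjusted p = 0.158, DESeq2 adjusted p = 0.0482), and 0.35 without actb1 sponge 3 by edgeR. The part of the low mitochondrial and neuronal share of that library in these values was not tested.

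The ratio of GPX4 to gpx4a counts, chosen after the values were seen, was 3.12, 2.62, 1.43 and 1.60 in actb1 sponge 1 to 4. It was 2.70, 1.24, 1.77 and 2.64 in kif5a sponge 1 to 4, against at most 1.23 in any wild-type library. The 8 sponge libraries all lay above wild type, kif5a sponge 2 by a small margin. In 6 of the 8, gpx4a alone already lay below every wild-type library. How often ratios of other genes separate the libraries in this way was not worked out. The sources used here do not give how reads that match both paralogues were counted, so the split between this pair is uncertain. The gene most like gpx4a over the 12 libraries was FXR1, an RNA-binding protein gene (r = 0.96), followed by the ribosomal protein gene RPL18 (0.93) and UTP4 (0.93). Most like GPX4 were RPS23 (0.98), RBM8A (0.98) and RPL13A (0.98), of which RPS23 and RPL13A encode ribosomal proteins. RPS23 also peaked in actb1 sponge 3, at 748 CPM, against 242 to 382 CPM in the other actb1 sponge libraries, 218 to 282 CPM in kif5a sponge and 242 to 314 CPM in wild type. Without actb1 sponge 3, r between GPX4 and RPS23 was 0.92.

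**Figure D4:**
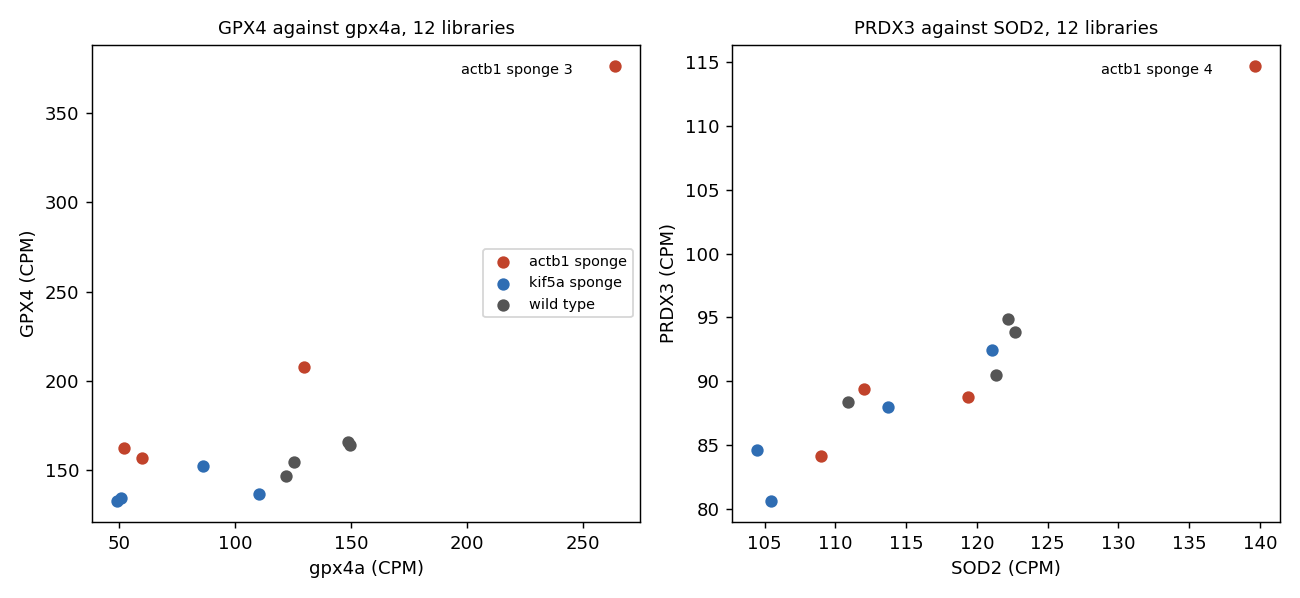
Normalised CPM of GPX4 against gpx4a (left) and of PRDX3 against SOD2 (right), 1 point per library, for actb1 sponge, kif5a sponge and wild type. In the left panel actb1 sponge 3 lies far from the rest at 264 and 376 CPM, and in the right panel the points run along a line with actb1 sponge 4 at its upper end (140 and 115 CPM).

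gpx1a, whose mammalian counterpart works in cytosol and mitochondria, was the member that went against the rest between the lines. It stood at 25.1, 43.9, 41.6 and 31.5 CPM in actb1 sponge 1 to 4, at 49.2, 58.8, 48.0 and 43.9 CPM in kif5a sponge 1 to 4, and at 34.7, 46.9, 43.8 and 50.5 CPM in wild type 1 to 4. In actb1 sponge, replicates 1 and 4 lay below wild type, and in kif5a sponge replicate 2 lay above it. The log2 difference of actb1 sponge minus kif5a sponge was -0.49 ± 0.17 (edgeR adjusted p = 0.195). It was -0.31 ± 0.17 in actb1 sponge minus wild type (adjusted p = 0.390; -0.17 without actb1 sponge 1) and 0.18 ± 0.17 in kif5a sponge minus wild type (adjusted p = 0.773). Over the 12 libraries gpx1a ran against CAT (r = -0.57) and NQO1 (r = -0.57). On deviations from the group means these r values were -0.50 and -0.31. The gene most like gpx1a was ASNS, which encodes asparagine synthetase (r = 0.83).

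Superoxide dismutase genes were not called. SOD1, the copper-zinc enzyme of the cytosol, stood at 144, 125, 170 and 179 CPM in actb1 sponge 1 to 4, at 130 to 144 CPM in kif5a sponge, and at 124 to 148 CPM in wild type. Replicates 3 and 4 of actb1 sponge lay above all other libraries. The log2 difference was 0.23 ± 0.11 in actb1 sponge minus wild type, with an interval of -0.01 to 0.47 (edgeR adjusted p = 0.318). Leaving out actb1 sponge 4 gave 0.15, and leaving out actb1 sponge 2 gave 0.36. It was 0.08 ± 0.11 in kif5a sponge minus wild type, with an interval of -0.16 to 0.32. SOD2, the manganese enzyme of the mitochondrial matrix, stood at 109 to 140 CPM in actb1 sponge, 104 to 121 CPM in kif5a sponge and 111 to 123 CPM in wild type. Its log2 difference was 0.01 ± 0.09 in actb1 sponge minus wild type and -0.10 ± 0.09 in kif5a sponge minus wild type, with intervals of -0.19 to 0.20 and -0.30 to 0.09.

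Peroxiredoxin genes, whose products reduce peroxides through a reactive cysteine, were also not called. PRDX3, the mitochondrial form, stood at 84.2 to 115 CPM in actb1 sponge, 80.7 to 92.5 CPM in kif5a sponge and 88.4 to 94.9 CPM in wild type. In kif5a sponge, 3 of 4 libraries lay below wild type, with a log2 difference of -0.09 ± 0.10 (edgeR adjusted p = 0.816). prdx1 (ENSDARG00000058734) stood at 25.7 to 58.2 CPM in actb1 sponge, 30.6 to 41.2 CPM in kif5a sponge and 28.6 to 40.6 CPM in wild type, the highest value in actb1 sponge 3. Its log2 difference in actb1 sponge minus wild type was 0.20 ± 0.21, and -0.04 without actb1 sponge 3. PRDX1 (ENSDARG00000025350) stood at 182 to 235 CPM in actb1 sponge, 187 to 215 CPM in kif5a sponge and 177 to 222 CPM in wild type. The log2 differences from wild type were 0.12 ± 0.11 in actb1 sponge and 0.03 ± 0.11 in kif5a sponge.

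By its neighbours, PRDX1 (ENSDARG00000025350) sits at the place of another peroxiredoxin gene, and it was kept because members were matched by name. Of its 9 named neighbours in the count table, 5, among them SNRPB2, RNASEH2A and JUNB, also lie beside a gene that RefSeq (assembly GRCz12tu) calls prdx2, with prdx1 as a synonym. Of 5 neighbours with a RefSeq chromosome, 5 lie on chromosome 1, as prdx2 does, and 0 on chromosome 2, where RefSeq has prdx1. Of the 10 named neighbours of prdx1 (ENSDARG00000058734), 8 also lie beside the RefSeq gene prdx1. GPX4 shares 4 of 8, the neighbours rab11bb, PIP5K1C, POLR2E and ARHGAP45, with RefSeq gpx4b, although RefSeq also places POLR2E and ARHGAP45 beside gpx4a.

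GCLC and NQO1 stood higher on average in the actb1 line than in the kif5a line, without passing the test. GCLC stood at 80.5, 80.9, 85.9 and 86.6 CPM in actb1 sponge 1 to 4, at 73.3, 74.9, 79.8 and 70.1 CPM in kif5a sponge 1 to 4, and at 79.9, 75.0, 84.9 and 70.4 CPM in wild type 1 to 4. The 4 actb1 libraries lay above the 4 kif5a libraries, while both overlapped wild type. The log2 difference of actb1 sponge minus kif5a sponge was 0.16 ± 0.08 (edgeR adjusted p = 0.322). GCLC had the smallest within-group SD of the 11, 0.09 on the log2 CPM scale, at percentile 5.63 of the 8042 genes.

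NQO1 stood at 17.70, 18.03, 13.33 and 16.87 CPM in actb1 sponge 1 to 4, at 14.06, 12.87, 12.80 and 12.18 CPM in kif5a sponge 1 to 4, and at 17.96, 17.34, 12.96 and 15.30 CPM in wild type 1 to 4. In kif5a sponge, 3 of 4 libraries lay below wild type. The log2 difference was -0.29 ± 0.13 in kif5a sponge minus wild type (edgeR adjusted p = 0.430) and 0.34 ± 0.13 in actb1 sponge minus kif5a sponge (adjusted p = 0.222).

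**Figure D5:**
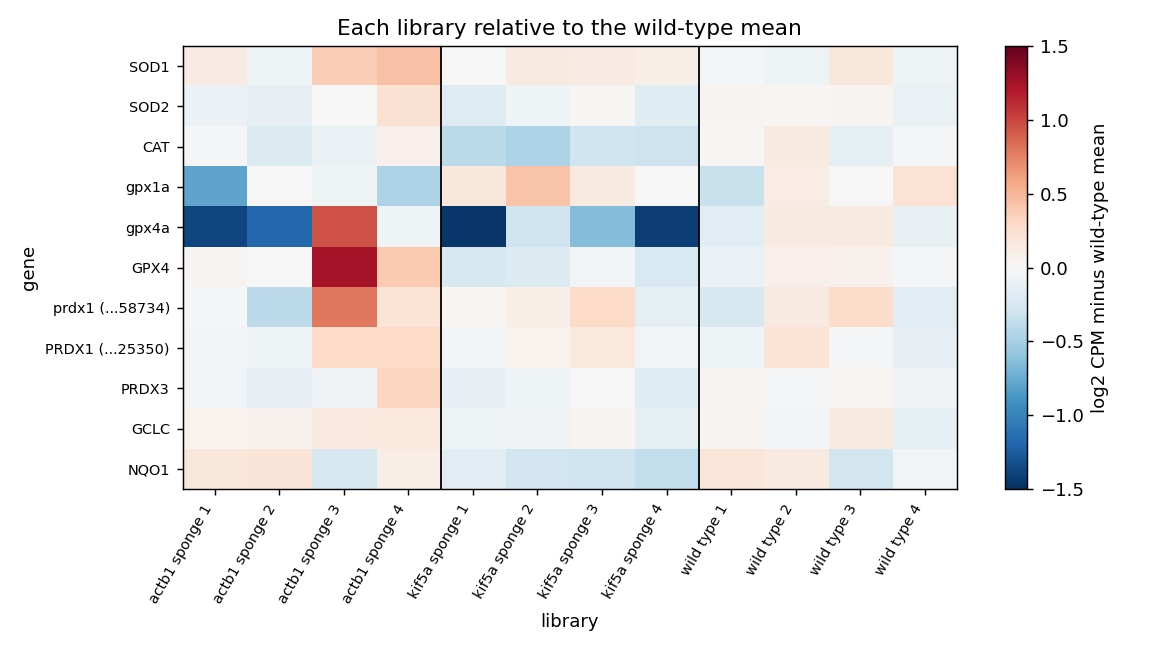
Log2 CPM of each gene in each library minus the wild-type mean (blue lower, red higher), with actb1 sponge, kif5a sponge and wild-type libraries from left to right. The CAT row is blue across the 4 kif5a libraries, and the gpx4a row holds both the deepest blue and, in actb1 sponge 3, a strong red.

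Most pairs of members also varied together over the libraries. Of the 55 pairs, 42 had a positive Pearson r of log2 CPM over 12 libraries, with a median of 0.44, and a median of 0.40 without actb1 sponge 3. The r of pairs of other genes was not worked out, so this cannot be called particular to the members. The closest pair was SOD2 and PRDX3 (r = 0.94, and 0.93 on deviations from the group means), both enzymes of the mitochondrial matrix. Each was the closest of all 15624 named genes to the other over the 12 libraries. Without actb1 sponge 3 the r of this pair was 0.95, and MTRES1 stood closer to SOD2 (0.97). The pair gpx4a and GPX4 had an r of 0.69, 0.47 without actb1 sponge 3 and 0.88 on deviations from the group means. CAT and NQO1 had an r of 0.69, and 0.32 on deviations from the group means. On those deviations NQO1 ran against GPX4 (-0.70), prdx1 (ENSDARG00000058734; -0.69), SOD1 (-0.64) and gpx4a (-0.60), and its r with PRDX3 was 0.05. Members of a library share its depth, cell composition and dissection. The sums of the photoreceptor and microglia markers above differed between libraries, and their part in these r values was not tested. The r values describe the 12 libraries only.

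Genes of the wider redox network gave 1 call by edgeR. In 8 lists, 129 genes were tested, and msrb2 alone passed, in actb1 sponge against wild type (1 of 129, beside 0.738% of all genes). The other comparisons gave 0 of 129, beside 0.534% in kif5a sponge, 0.621% for both lines and 1.18% between the lines. These edgeR counts lie near the share of all genes. DESeq2 called 7 of the 129 in actb1 sponge against wild type (beside 4.75% of all genes) and 2 in kif5a sponge against wild type (2.22%). For both lines it called 4 (3.37%), and between the lines 4 (4.84%). limma-voom called 1, 0, 1 and 0 in the same order, beside 0.463%, 0.524%, 0.458% and 1.02% of all genes. At an unadjusted p under 0.05 by edgeR, 21, 18, 17 and 35 of the 129 stood out, beside 16.7%, 11.3%, 13.4% and 16.2% of all genes. The count between the lines lies above that share and the others near it, and all these genes were read in the same libraries. msrb2 encodes a methionine sulfoxide reductase, which repairs oxidised methionine. It stood at 19.1, 21.2, 14.7 and 23.7 CPM in actb1 sponge 1 to 4, against 42.2, 41.8, 44.5 and 34.7 CPM in wild type 1 to 4, with no overlap (as in 9.33% of all genes, either direction). It fell by 1.05 ± 0.20 on the log2 scale in actb1 sponge (edgeR quasi-likelihood, adjusted p = 0.0304). Of 8 fits that each omitted 1 library, 2 kept the call, those without wild type 3 and without actb1 sponge 4, and the adjusted p of all 8 ran from 0.0384 to 0.0877. In kif5a sponge 1 to 4 it stood at 30.8, 26.2, 39.4 and 20.2 CPM, a log2 difference of -0.49 ± 0.19 from wild type (adjusted p = 0.364).

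Median differences of the lists are given beside all-gene medians of -0.03 in actb1 sponge and -0.01 in kif5a sponge. Of all genes, 48.9% were positive in kif5a sponge against wild type. Other superoxide and peroxide enzymes (9 tested) had a median log2 difference of 0.24 in actb1 sponge and 0.08 in kif5a sponge against wild type. The values were 0.09 and -0.27 for thioredoxin, glutaredoxin and methionine sulfoxide reductase genes (14 tested). Of that list, 11 of 14 were negative in kif5a sponge, and msrb2 was the 1 call in actb1 sponge. For glutathione synthesis, recycling and NADPH supply (15 tested) the medians were 0.01 and 0.09. They were 0.09 and -0.17 for NRF2 outputs and conjugation (18 tested), with 15 of 18 negative in kif5a sponge. For NRF2 pathway regulators (22 tested) they were -0.14 and -0.06. The selenoprotein list (13 tested), of genes for selenoprotein synthesis and of selenoproteins such as selenop and selenow1, gave 0.06 and 0.03. Peroxisome genes (26 tested) gave 0.12 and 0.01, and sources of reactive oxygen (12 tested) -0.21 and -0.13. Between the lines, actb1 sponge minus kif5a sponge, the lean of the members was shared by some lists. Positive were 12 of 14 thioredoxin, glutaredoxin and methionine sulfoxide reductase genes (median 0.29) and 14 of 18 NRF2 outputs and conjugation genes (0.25). Of other superoxide and peroxide enzymes, 8 of 9 were positive (0.24). These counts stand beside 49.4% of all genes, and all lists were read in the same libraries. Of the microglia and macrophage markers, 11 of 11 were positive (median 0.65). The other 5 lists had medians of -0.04 to 0.09.

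Genes of smallest p in these lists included maff, a small MAF partner of NRF2, at 53.0 ± 2.25 CPM in actb1 sponge and 52.2 ± 4.70 CPM in kif5a sponge, against 64.9 ± 2.66 CPM in wild type (n = 4 each). Its log2 differences were -0.29 ± 0.08 and -0.32 ± 0.08 (edgeR adjusted p = 0.109 and 0.136, DESeq2 adjusted p = 0.0157 and 0.0100), and all 8 sponge libraries lay below wild type. Of all genes, 9.33% separated actb1 sponge from wild type in either direction, and 4.99% lay below wild type in all kif5a libraries. These shares are for each line alone, and no share is given for all 8 sponge libraries together. ERO1A, an oxidase of the endoplasmic reticulum that yields hydrogen peroxide, stood at 4.93 ± 1.15 CPM in actb1 sponge and 6.31 ± 4.52 CPM in kif5a sponge, against 15.1 ± 4.04 CPM in wild type. Its log2 differences were -1.61 ± 0.38 and -1.25 ± 0.38 (edgeR adjusted p = 0.0830 and 0.238). DESeq2 called ERO1A in both lines (adjusted p = 0.00227 and 0.0469), and an edgeR fit of only actb1 sponge and wild type called it in actb1 sponge (adjusted p = 0.0276). Without kif5a sponge 4 the kif5a difference was -1.89, a call by edgeR (adjusted p = 0.00679). TKT, a transketolase gene of the pentose phosphate pathway, stood at 11.2 ± 1.42 CPM in actb1 sponge and 18.8 ± 3.70 CPM in wild type (log2 difference -0.75 ± 0.19, edgeR adjusted p = 0.0896, DESeq2 adjusted p = 0.00961). selenow1, a small selenoprotein gene, stood at 158 ± 52.8 CPM in actb1 sponge and 98.4 ± 5.63 CPM in wild type (0.68 ± 0.18, edgeR adjusted p = 0.109, DESeq2 adjusted p = 0.0147), and its difference was 0.46 without actb1 sponge 3. GPX8, a glutathione peroxidase family gene of the endoplasmic reticulum, stood at 2.99, 2.20, 7.93 and 3.35 CPM in actb1 sponge 1 to 4, against 1.27, 1.86, 2.25 and 0.995 CPM in wild type 1 to 4. Its log2 difference was 1.37 ± 0.39 (edgeR adjusted p = 0.122, DESeq2 adjusted p = 0.0253), and 0.86 without actb1 sponge 3. gpx1b, the paralogue of gpx1a, stood at 9.07 ± 3.82 CPM in actb1 sponge and 4.58 ± 1.47 CPM in wild type, with its highest value in actb1 sponge 3 (0.99 ± 0.33, edgeR adjusted p = 0.172, and 0.69 without that library). DAO (ENSDARG00000035603), a peroxisomal oxidase gene, stood at 7.01 ± 0.245 CPM in actb1 sponge and 4.72 ± 0.544 CPM in wild type (0.57 ± 0.15, edgeR adjusted p = 0.106, DESeq2 adjusted p = 0.0170). NFE2L2, the NRF2 gene, was looked at for its role and not for its rank. It stood at 47.3 to 74.0 CPM in actb1 sponge, the highest in replicate 3, at 31.2 to 42.0 CPM in kif5a sponge and at 33.8 to 50.8 CPM in wild type. Its log2 difference of actb1 sponge minus kif5a sponge was 0.53 (edgeR adjusted p = 0.151), and 0.37 without actb1 sponge 3.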

How the data were processed

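Counts of reads per gene, whole numbers as the authors deposited them, were the input of every main test. The submitters' processing notes name featureCounts 1.4.6-p4, STAR 2.4.1d, bcl2fastq 1.8.4 and build GRCz10. Per the labels' protocols the TruSeq RNA kit, version 2, was used, which does not mark strand, so antisense reads cannot be told apart. The authors also deposited RPKM. Arithmetic over 6540 genes showed the 12 library totals recycled down the genes, so that the divisor was that of the right library in 8.33% of RPKM values. They served to recover gene lengths (remaining coefficient of variation at most 0.000147) and as an alternative.

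Genes above 0.5 CPM in at least 4 libraries (19645 of 32105) entered 1 fit of all 12 libraries with TMM and the quasi-likelihood test of edgeR 4.0.16 (R 4.3.3). DESeq2 1.42.0 and limma 3.58.1 were alternatives. In counts simulated for actb1 sponge and wild type, DESeq2 called 34 unchanged genes, edgeR 2 and limma-voom 2. Of genes given a 2-fold change, DESeq2 called 65.7%, edgeR 35.8% and limma-voom 34.3%. By that simulation, drawn with edgeR dispersions, a call by DESeq2 alone is less certain than one by edgeR. The simulation was a single draw fitted with these groups only, not with all 12 libraries. Its changed genes came from all genes above 1 CPM, so its rates are not those of the members. Comparisons with kif5a sponge, where the DESeq2 calls among the members lie, were not simulated. Intervals are 95%. Of the identifiers, 26269 had a symbol. Members, lists and tests were chosen with earlier results of these data known. The named genes are all members, called list genes, list genes of smallest p and up to 3 genes most like each member, of which some are not reported here. Replicate numbers follow accession order. No replicate pair matched within sampling noise (lowest chi-square over its degrees of freedom 9.64). No sequences are shown.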

Additional observations from a re-analysis of the deposited data

Results flagged for a closer look

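In 2 of the 33 groups of 4 values (11 identifiers in 3 groups), 1 library stood far from the other 3. Chance alone gives this in about 5% of groups. For SOD2 in wild type, library 4 stood at 111 CPM, against 121 to 123 CPM in the other 3, a gap of 0.885 of the group's range. For PRDX3 in actb1 sponge, library 4 stood at 115 CPM, against 84.2 to 89.4 CPM in the other 3, a gap of 0.8293 of the range, just past the critical value of Dixon's test.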

How the results depend on the processing

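No paired analysis was possible because the labels number no replicates, and numbers given in accession order pair nothing. Over all genes, DESeq2 called 449 higher and 485 lower in actb1 sponge against wild type (edgeR 55 and 90), 156 and 281 in kif5a sponge against wild type (edgeR 22 and 83), 274 and 389 for both lines (edgeR 30 and 92) and 495 and 455 between the lines (edgeR 126 and 106). limma-voom called 36 higher and 55 lower in actb1 sponge and 15 higher for both lines. A fit of only the groups compared called 35 higher and 46 lower in actb1 sponge, and it is not defined for both lines. With 1 library left out, the counts of genes higher and lower were 20 to 94 and 32 to 156 in actb1 sponge, 5 to 26 and 30 to 70 in kif5a sponge, 11 to 41 and 44 to 136 for both lines, and 54 to 112 and 42 to 80 between the lines.

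Other settings were also read with no library of the compared groups left out, fits of only those groups included. Of the member differences there, 406 kept direction and side of the threshold, 20 turned and 3 became calls (CAT in 2 comparisons and GPX4, all by DESeq2). The turned ones all used the deposited RPKM, whose divisors are mixed between libraries. With pseudocounts of 0.1 and 1, the log2 values in actb1 sponge against wild type were 0.313 and 0.308 for CAT and -0.156 and -0.154 for PRDX3. In kif5a sponge against wild type they were 0.235 and 0.225 for GCLC and 0.151 and 0.136 for NQO1. For both lines they were 0.0361 and 0.0357 for SOD2, 0.118 and 0.116 for gpx1a and 0.288 and 0.260 for NQO1. Between the lines they were -0.0983 and -0.0974 for SOD1, -0.0376 and -0.0369 for PRDX3, and -0.0440 and -0.0421 for GCLC. The list gene maff, which is not a member, turned too. Its values were 0.0838 and 0.0818 in actb1 sponge and 0.115 and 0.113 in kif5a sponge, each against wild type.

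With 1 library left out, 377 member differences kept direction and 19 turned. In actb1 sponge against wild type the log2 difference ran from -0.072 to 0.095 for SOD2, -0.11 to 0.025 for CAT, -0.73 to 0.18 for gpx4a, -0.038 to 0.40 for prdx1 (ENSDARG00000058734), -0.072 to 0.13 for PRDX3 and -0.035 to 0.17 for NQO1. In kif5a sponge it ran from -0.0090 to 0.16 for prdx1 (ENSDARG00000058734) and -0.0051 to 0.10 for PRDX1 (ENSDARG00000025350). For both lines it ran from -0.087 to 0.0014 for SOD2, -0.14 to 0.035 for gpx1a and -0.080 to 0.025 for PRDX3, and between the lines from -0.11 to 0.33 for prdx1 (ENSDARG00000058734). With 4 libraries a group, small differences are not detectable: the interval of the CAT difference in actb1 sponge against wild type spans -0.25 to 0.12.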

Other observations

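The members were spread unevenly over the libraries at their extremes. Of the 11 identifiers, 4 had their highest value of the 12 libraries in actb1 sponge 3 and 4 in actb1 sponge 4. In kif5a sponge 1 and kif5a sponge 4, 3 identifiers each had their lowest. In kif5a sponge 4, 7 of 11 lay below every wild-type library, and in actb1 sponge 3 and 4, 6 of 11 each lay above every wild-type library. The share of all genes at these extremes in each library was not worked out. These counts therefore describe the libraries and cannot be read as a trait of the members. The member genes took 0.0998% to 0.168% of all counts in actb1 sponge, 0.0978% to 0.112% in kif5a sponge and 0.109% to 0.119% in wild type, with the highest share in actb1 sponge 3.

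Among the other members, the genes most like SOD1 were DNAJA3 (r = 0.93), MRPL33 (0.93) and PGK2 (0.92). The genes most like GCLC were STX3 (ENSDARG00000001880; 0.92), SCRN3 (0.91) and calm1a (0.91). BCKDK (0.88), PRPSAP1 (0.86) and GJA1 (0.85) were most like NQO1. PTRH2, LDHB and ALKBH4 were most like prdx1 (ENSDARG00000058734; 0.93, 0.92 and 0.92, and 0.88, 0.84 and 0.83 without actb1 sponge 3), and smim15 was the gene most like PRDX1 (ENSDARG00000025350; 0.95). Each r is over 12 libraries and among the 3 highest of 15624 named genes.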
